A study of Mus musculus with 6 samples.

Results

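Levels of 10 genes of the p53 response were compared in M2c-polarized macrophages that lacked the soluble epoxide hydrolase (sEH) and in wild-type macrophages. They are *Trp53*, which encodes p53, and 9 genes that p53 is known to activate in its feedback control and in growth arrest, namely *Mdm2*, *Ccng1*, *Cdkn1a*, *Btg2*, *Psrc1*, *Plk2*, *Trp53inp1*, *Sesn1* and *Sesn2*. They were chosen by gene symbol, with earlier results of these data known, and are 10 of the 19309 genes in the deposited count table. Each symbol was carried by a single row, and all 10 had enough counts to be tested. *Psrc1* and *Trp53inp1* fell in sEH-/- macrophages, *Psrc1* to 38.3% and *Trp53inp1* to 58.8% of the wild-type level. The other 8 members were not called, and *Trp53* itself lay at 106.6% of wild-type.

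The sEH is the enzyme encoded by *Ephx2* that converts fatty acid epoxides to diols. Bone marrow monocytes from mice aged 8 to 10 weeks were matured over 7 days with the growth factors M-CSF and GM-CSF, at 15 ng/mL each. LPS at 10 ng/mL plus IFN-γ at 1 ng/mL gave M1 macrophages, and TGF-β1 at 10 ng/mL turned these into M2c macrophages, a state linked to the resolution of inflammation. The study made one library from each of 3 sEH-/- and 3 wild-type mice, and the treatments were common to both genotypes. By the sample descriptions, M1 polarization lasted 24 h and TGF-β1 a further 48 h, whereas the methods of the study state 12 h for the first and either 24 h or 48 h for the second. The sEH was missing from every cell of the sEH-/- mice from birth, so that the monocytes had developed without it. The study used strain-matched littermates and lists C57BL/6N mice. Its text states that bone marrow for work of this kind came from females, the labels name no sex, and *Xist* had 2308 to 4474 counts in each of the 6 libraries.

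p53 is a transcription factor that is held at a low level by Mdm2, a ubiquitin ligase that marks it for degradation. Stress to DNA or metabolism relieves this control, and p53 then activates genes that stop the cell cycle, repair DNA or kill the cell, along with genes such as *Mdm2* that switch it off again. p53 is regulated mainly as a protein, so that its transcript says little of its activity. In macrophages *Cdkn1a* also responds to differentiation and to interferon, and its level does not report on p53 alone.

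p53 binds DNA as a tetramer at a pair of half-sites, each a run of 10 bases built around the core CATG or a close variant of it. RefSeq start sites (GRCm38.p6) were given for 9 of the 10 members, all but *Trp53inp1*. In the 250 bases before the start, 5 of these 9 held a match to the half-site, namely *Cdkn1a*, *Mdm2*, *Ccng1*, *Trp53* and *Sesn1* at one of its start sites. Counted by window, since some members have more than one start, 5 of the 12 member windows held a match, beside 7.13% of 32851 windows of this length over all genes. The windows of 4 of these 5 genes and of *Psrc1* are shown, because the members with a match near the start and the member with the largest difference between the genotypes were not the same genes. Each runs 5′ to 3′ on the strand of the gene and ends with the base before the start. Capitals mark half-site matches in the first 4 windows. In *Cdkn1a* they also cover the longer match to CATGNNNNNNCATG that overlaps the half-site nearer the start. In *Psrc1* they mark CCAAT on either strand, since its windows held no half-site.
Cdkn1a, chr17:29090729-29090978, plus strand: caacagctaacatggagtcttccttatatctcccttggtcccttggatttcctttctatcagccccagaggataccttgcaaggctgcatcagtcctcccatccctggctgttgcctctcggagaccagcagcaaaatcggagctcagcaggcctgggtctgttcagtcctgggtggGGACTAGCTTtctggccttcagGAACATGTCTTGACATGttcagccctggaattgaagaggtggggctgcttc
Mdm2, chr10:117710759-117711008, minus strand: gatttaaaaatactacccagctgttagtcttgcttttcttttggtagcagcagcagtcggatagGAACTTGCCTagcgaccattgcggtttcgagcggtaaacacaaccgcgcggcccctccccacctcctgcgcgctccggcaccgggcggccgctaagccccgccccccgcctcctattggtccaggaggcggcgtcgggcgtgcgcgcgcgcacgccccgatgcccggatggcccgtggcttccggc
Ccng1, chr11:40755287-40755536, minus strand: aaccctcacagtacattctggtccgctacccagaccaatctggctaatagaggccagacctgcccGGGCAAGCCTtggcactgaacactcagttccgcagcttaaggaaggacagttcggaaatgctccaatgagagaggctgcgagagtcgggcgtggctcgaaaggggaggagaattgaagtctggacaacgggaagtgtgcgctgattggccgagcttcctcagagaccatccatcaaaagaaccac
Trp53, chr11:69580109-69580358, plus strand: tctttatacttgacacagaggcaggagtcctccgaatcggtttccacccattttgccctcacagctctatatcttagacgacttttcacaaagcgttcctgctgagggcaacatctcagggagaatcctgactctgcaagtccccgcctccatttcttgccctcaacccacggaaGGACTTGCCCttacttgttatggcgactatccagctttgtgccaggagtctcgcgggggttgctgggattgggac
Psrc1, chr3:108383554-108383803, plus strand: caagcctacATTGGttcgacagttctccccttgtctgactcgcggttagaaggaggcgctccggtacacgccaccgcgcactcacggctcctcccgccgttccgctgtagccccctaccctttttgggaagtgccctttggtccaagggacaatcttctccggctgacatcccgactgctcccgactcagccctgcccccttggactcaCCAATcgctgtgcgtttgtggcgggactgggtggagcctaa

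The half-site matches lay at positions −73 to −64 and −51 to −42 in *Cdkn1a*, −186 to −177 in *Mdm2*, −185 to −176 in *Ccng1* and −75 to −66 in *Trp53*, counted from −1 at the base before the start. CATGNNNNNNCATG was found in *Cdkn1a* alone among the members and in 0.49% of all windows. CCAAT, searched on both strands, was present in 9 of the 12 member windows and in 33.85% of all windows. GGGCGG was present in 8 of the 12 member windows and in 32.74% of all windows. These matches describe letters only, and many established p53 sites lie outside such windows, as in the first intron of *Mdm2* and farther upstream of *Cdkn1a*.

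The libraries held 4400197 to 6096440 counts, the smallest being sEH-/- replicate 3 and the largest wild-type replicate 2. CPM denotes counts divided by the TMM-normalized library size, which evens out differences in composition. As a check of the labels, *Ephx2* had 26, 49 and 57 counts in wild-type replicates 1 to 3 but 4, 2 and 1 in sEH-/- replicates 1 to 3 (log2 fold change −4.05, edgeR adjusted p = 0.00418). The 8 macrophage markers were present in every library, with a summed level of 2059 to 2557 CPM in sEH-/- against 1853 to 2337 CPM in wild-type macrophages. Summed stromal markers reached 63.3 CPM in wild-type replicate 2 and 8.13 to 29.3 CPM in the other libraries. Summed neutrophil markers lay at 28.2 to 31.9 CPM in sEH-/- against 17.4 to 21.2 CPM in wild-type macrophages, and 6 of the 8 listed were in the table, of which all but *S100a8* had at most 10 counts in any library. Summed dendritic cell markers lay at 27.0 to 57.7 and 42.2 to 58.9 CPM, with *Cd209a* at 0 in every library. *Klf1* was the one erythroid marker in the table, at 3 to 11 counts, and the 6 lymphocyte markers listed had no row there. The part of other cells in the results on the members was not tested.

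Each gene was tested with edgeR's quasi-likelihood test over the 13785 genes whose mean count exceeded 5, and p was adjusted by the Benjamini-Hochberg method (the edgeR adjusted p). A negative log2 fold change denotes a lower level in sEH-/- than in wild-type macrophages. A gene was called at an adjusted p below 0.05 and a log2 fold change beyond 0.585 in either direction, that is 1.5-fold. By this rule 2 of the 10 members were called, both lower, beside 2.61% of all tested genes called in either direction and 1.1% called lower. The genotypes did not overlap, with every sEH-/- library below every wild-type library, in 6 of the 10 members and in 14.5% of all tested genes. Of the 10 log2 fold changes, 9 were below 0, beside 50.2% over all tested genes. Their median was −0.27, whereas that of all tested genes was −0.00092. Since the members were chosen with earlier results of these data known, these shares describe them and are not a test. These are bulk libraries, in which fewer cells with a transcript and less of it per cell cannot be told apart.

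**Figure D1:**
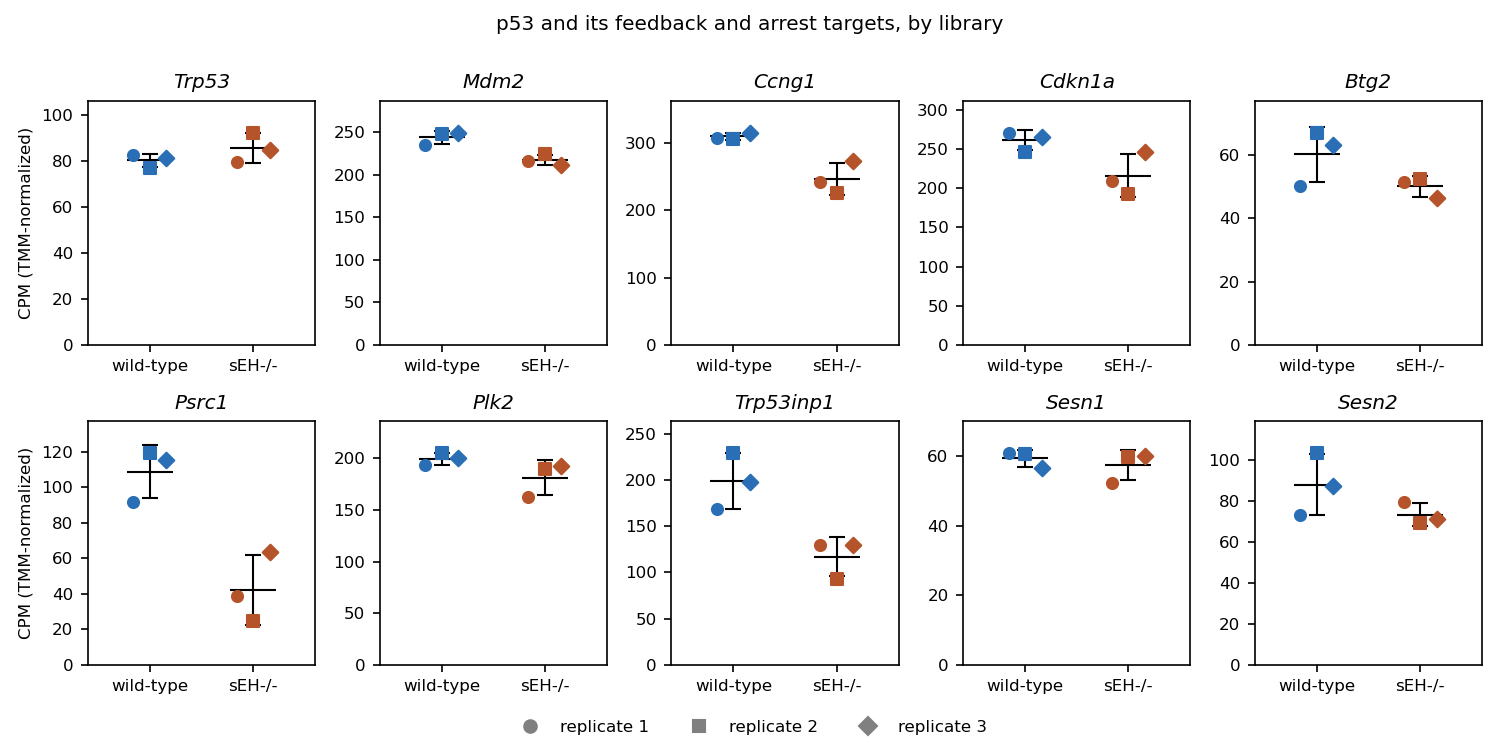
TMM-normalized CPM of *Trp53* and 9 of its feedback and arrest targets in 3 wild-type (blue) and 3 sEH-/- (brown) libraries, on linear axes that start at 0. Symbols give the replicate, horizontal bars the mean and error bars the SD. The genotypes separate widely for *Psrc1* and *Trp53inp1* and overlap for *Trp53*, *Btg2*, *Sesn1* and *Sesn2*.

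*Trp53* (ENSMUSG00000059552, mm10 chr11:69580359-69591873, plus strand) had 375, 474 and 454 counts in wild-type replicates 1 to 3 against 465, 457 and 366 in the corresponding sEH-/- replicates. In CPM, the wild-type libraries held 82.4, 76.9 and 81.4 and the sEH-/- libraries 79.6, 92.2 and 84.9. Values of the other members follow the same order of replicates. The highest value was in sEH-/- replicate 2 and the lowest in wild-type replicate 2, and the genotypes overlapped. The means were 85.5 ± 6.36 CPM for sEH-/- and 80.2 ± 2.94 CPM for wild-type macrophages (SD, n = 3 mice each). The log2 fold change of 0.092 (SE 0.079, edgeR adjusted p = 0.533) had a 95% interval from −0.084 to 0.27, so that a 1.5-fold difference in the transcript lay outside the interval. *Wrap53* lies against *Trp53* on the opposite strand, and the study counted reads by strand. The pseudogene *Trp53-ps* had 7, 10 and 12 counts in wild-type against 9, 15 and 13 in sEH-/- libraries, and reads that map to several places had been removed. It was chosen after its values were seen.

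The feedback arm comprised *Mdm2* and *Ccng1*. *Mdm2* (chr10:117688875-117710758, minus strand) had 1072, 1528 and 1392 counts in wild-type against 1264, 1110 and 913 in sEH-/- libraries. On the CPM scale these were 236, 248 and 249.5 against 216, 224 and 212. All 3 sEH-/- libraries lay below the wild-type libraries, by a small margin. The sEH-/- and wild-type means of 217 ± 6.21 and 244 ± 7.58 CPM (SD, n = 3 mice each) gave a log2 fold change of −0.17 (SE 0.068, edgeR adjusted p = 0.166), which was not called. Its 95% interval ran from −0.32 to −0.019.

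*Ccng1*, which encodes cyclin G1, a partner of the phosphatase that acts on Mdm2, was the most highly expressed member per length (chr11:40748552-40755311, minus strand). It had 308, 307 and 316 CPM in wild-type against 242, 227 and 273 CPM in sEH-/- macrophages. The genotypes did not overlap, and the wild-type libraries lay close together. The sEH-/- and wild-type means of 247 ± 23.7 and 310.3 ± 4.87 CPM (SD, n = 3 mice each) corresponded to a log2 fold change of −0.33 (SE 0.083, edgeR adjusted p = 0.0543, 95% interval −0.51 to −0.14). *Ccng1* was not called, and the interval did not reach the 1.5-fold threshold. With DESeq2 the adjusted p was 0.0142 at a log2 fold change of −0.32, and it was below 0.05 in 5 of 15 alternatives, in which the gene stayed short of 1.5-fold.

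Of the 4 members that act in the cell cycle or in growth control, *Cdkn1a* (chr17:29090976-29100727, plus strand) encodes p21, an inhibitor of cyclin-dependent kinases and the best known arrest target of p53. Its counts were 1233, 1521 and 1485 in wild-type against 1225, 953 and 1063 in sEH-/- libraries, or 271, 246.8 and 266 CPM against 209.6, 192 and 246.5 CPM. The genotypes did not overlap, but sEH-/- replicate 3 and wild-type replicate 2 all but touched. The sEH-/- and wild-type means were 216 ± 27.7 and 261 ± 12.8 CPM (SD, n = 3 mice each), and the log2 fold change of −0.28 (SE 0.095, edgeR adjusted p = 0.116) was not called. Its 95% interval from −0.49 to −0.064 stopped short of 1.5-fold.

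*Psrc1* (ENSMUSG00000068744, mm10 chr3:108383839-108388231, plus strand) encodes a microtubule-binding protein of the mitotic spindle. It had 418, 736 and 645 counts in wild-type against 227, 122 and 274 in sEH-/- libraries. These were 91.9, 119 and 116 CPM against 38.8, 24.6 and 63.5 CPM. The highest sEH-/- library lay well under the lowest wild-type library, and sEH-/- replicate 2 was the lowest of all. The sEH-/- and wild-type means of 42.3 ± 19.7 and 109 ± 14.9 CPM (SD, n = 3 mice each) gave a log2 fold change of −1.39 (SE 0.24, edgeR adjusted p = 0.0217, 95% interval −1.93 to −0.85). *Psrc1* fell, with an interval that lay wholly beyond 1.5-fold. Its call was lost with wild-type replicate 2 left out (−1.31, edgeR adjusted p = 0.105) and with wild-type replicate 3 left out (−1.34, edgeR adjusted p = 0.124). These fits called 25 and 6 of all tested genes, respectively, against 360 with all libraries.

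*Plk2* (chr13:110395046-110400844, plus strand), a polo-like kinase of the stress response and of centriole duplication, had 193, 205 and 200.2 CPM in wild-type against 162, 189 and 192 CPM in sEH-/- macrophages. The libraries did not overlap, although sEH-/- replicate 3 and wild-type replicate 1 were close. With a log2 fold change of −0.14 (SE 0.080, edgeR adjusted p = 0.327, 95% interval −0.32 to 0.037) it was not called. *Btg2* (chr1:134075170-134079120, minus strand) encodes an antiproliferative protein that promotes the removal of mRNA tails. It had 50.3, 67.2 and 63.5 CPM in wild-type against 51.5, 52.7 and 46.4 CPM in sEH-/- macrophages, and wild-type replicate 1 lay among the sEH-/- libraries. The log2 fold change was −0.27 (SE 0.11, edgeR adjusted p = 0.186, 95% interval −0.52 to −0.017) and was not called.

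The remaining 3 members act in the response to stress. *Trp53inp1* (ENSMUSG00000028211, mm10 chr4:11156431-11174379, plus strand) encodes a nuclear protein that favours the phosphorylation of p53 and also takes part in autophagy. It had 769, 1412 and 1106 counts in wild-type against 757, 458 and 558 in sEH-/- libraries, equal to 169, 229 and 198 CPM against 129.5, 92.4 and 129.4 CPM. The genotypes were apart, with sEH-/- replicate 2 the lowest and wild-type replicate 2 the highest. The sEH-/- and wild-type means were 117 ± 21.4 and 199 ± 30.03 CPM (SD, n = 3 mice each). *Trp53inp1* fell by 0.77 on the log2 scale (SE 0.14, edgeR adjusted p = 0.0237), with a 95% interval from −1.08 to −0.46 that reached inside 1.5-fold. The call was lost without sEH-/- replicate 2 (−0.60, edgeR adjusted p = 0.0574), without wild-type replicate 2 (−0.65, edgeR adjusted p = 0.112) and without wild-type replicate 3 (−0.77, edgeR adjusted p = 0.124). In that order, these fits called 96, 25 and 6 of all tested genes, against 360 with all libraries.

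The sestrins *Sesn1* and *Sesn2* encode stress proteins that restrain mTORC1, a kinase complex that drives growth. *Sesn1* (chr10:41809935-41908424, plus strand) had 60.9, 60.7 and 56.5 CPM in wild-type against 52.4, 59.7 and 60.1 CPM in sEH-/- macrophages. These values overlapped, and the log2 fold change of −0.052 (SE 0.087, edgeR adjusted p = 0.775) had a 95% interval from −0.25 to 0.14 and became 0.014 without sEH-/- replicate 1. *Sesn2* (chr4:132492032-132510501, minus strand) had 73.2, 103 and 87.1 CPM in wild-type against 79.6, 69.2 and 71.0 CPM in sEH-/- macrophages. It overlapped because wild-type replicate 1 lay under sEH-/- replicate 1, and its log2 fold change of −0.27 (SE 0.12, edgeR adjusted p = 0.209, 95% interval −0.53 to −0.0037) was not called. Whether the pair of sestrins differed from each other in response was not tested.

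**Figure D2:**
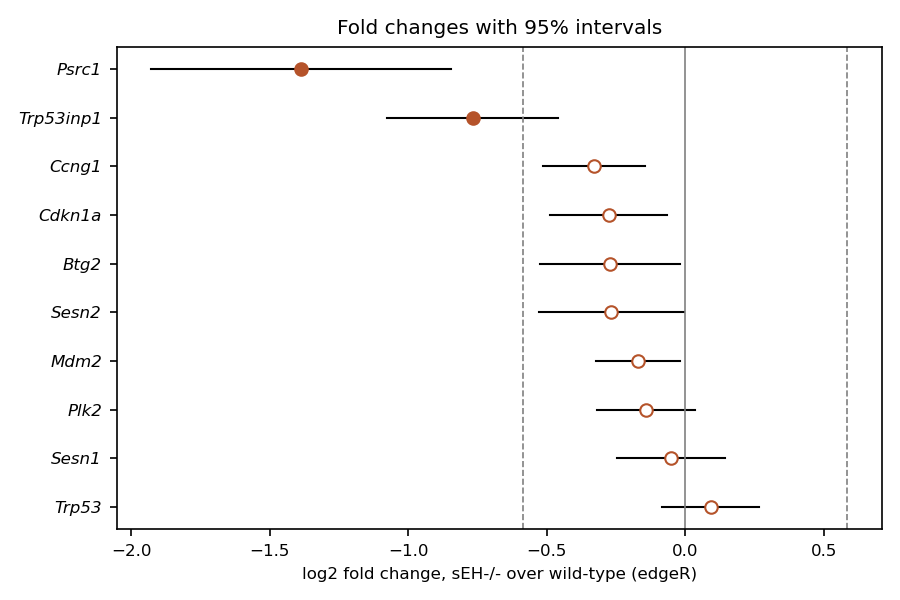
Log2 fold changes of the 10 members, sEH-/- over wild-type, with 95% intervals from edgeR's quasi-likelihood fit of 3 against 3 libraries. Filled points mark the called genes *Psrc1* (−1.39) and *Trp53inp1* (−0.77), and dashed lines mark 1.5-fold. The intervals of *Trp53*, *Plk2* and *Sesn1* include 0, and that of *Psrc1* lies beyond 1.5-fold.

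Compared per length, the members differed in level by several fold. Per kilobase of exon, the wild-type means were 88.4 CPM for *Ccng1*, 73.6 for *Cdkn1a*, 48.1 for *Mdm2* and 44.4 for *Plk2*. *Psrc1* and *Trp53inp1* followed at 32.4 and 30.7 CPM per kilobase, and *Sesn2*, *Btg2*, *Trp53* and *Sesn1* lay between 25.3 and 14.9. In sEH-/- macrophages the first 4 kept this order, at 70.4, 60.8, 42.8 and 40.3 CPM per kilobase. There *Psrc1* had the lowest mean of the members, at 12.6 CPM per kilobase, next to *Sesn1* at 14.4. The spread of *Psrc1* among the sEH-/- libraries was wider than this gap. Since duplicate reads had been removed, counts of a gene approach a limit set by its length, and the members carried 0.0765 (*Sesn1*) to 0.416 (*Ccng1*) counts per exonic base. Corrected for a limit of 1 count per exonic base, the log2 fold change of *Ccng1* was −0.47 (edgeR adjusted p = 0.0276), still under the 1.5-fold threshold. That of *Cdkn1a* was −0.36 and that of *Mdm2* −0.21, and neither was called.

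Single libraries within a genotype differed for the 9 targets. Relative to the wild-type mean of each gene, the median of the 9 log2 CPM differences was −0.30, −0.33 and −0.21 in the sEH-/- libraries but −0.052, 0.040 and 0.026 in the wild-type ones. For the whole set of tested genes, the same medians lay between −0.011 and 0.0045. The lowest library was an sEH-/- library and the highest a wild-type library for 9 of the 9 targets and for 37.8% of all tested genes. Among the sEH-/- libraries, replicate 2 was the lowest for 5 targets, a rank it held in 30.5% of all tested genes. Among the wild-type libraries, replicate 1 was the lowest for 6 targets and in 37.7% of all tested genes. Wild-type replicate 2, with the highest summed stromal markers, was the highest library for 5 of the 9 targets. How often it was the highest over all tested genes was not counted, so this number cannot be judged. Wild-type replicate 1 had the lowest stromal sum. The stromal sums of wild-type replicates 1 and 3 were 8.13 and 24.7 CPM. Those of sEH-/- replicates 1 to 3 were 29.3, 20.4 and 9.97 CPM. The part of these cells in the spread was not tested.

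**Figure D3:**
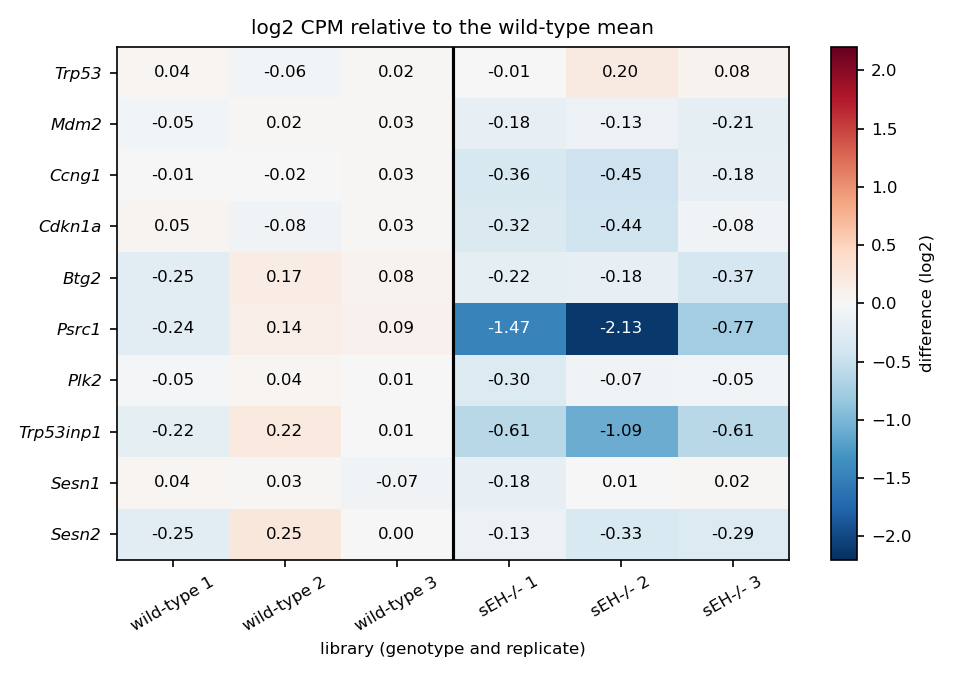
Difference of log2 CPM from the wild-type mean of the gene, for the 10 members (rows) in each library (columns), with the value printed in each cell and colours from blue (lower) to red (higher). *Psrc1* and *Trp53inp1* are the darkest rows in the 3 sEH-/- libraries, and *Trp53* stays between −0.060 and 0.20.

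The course of *Cdkn1a* over the 6 libraries was closest to that of *Ccng1* among the members. Likeness was measured as the root mean square difference of log2 CPM after each gene was centred on its own mean, and this was 0.0517 for *Cdkn1a* and *Ccng1*, 0.0669 for *Sesn1* and *Plk2* and 0.0826 for *Mdm2* and *Plk2*. Among 10267 other genes with at least 50 counts on average, *Ssr2*, *Cd200* and *Glipr2* were most like *Cdkn1a*, with differences of 0.0447, 0.0456 and 0.0487, where the median gene had 0.215. Those most like *Trp53* were *Fbrs*, *Csnk1g2* and *Nudt19*, at 0.0157, 0.0161 and 0.0165 with a median gene of 0.144. None of these 6 genes was called. *Psrc1* was least like *Trp53*, at 0.896, and its nearest member was *Trp53inp1*, at 0.439. These likenesses rest on 6 libraries and are given without a test.

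**Figure D4:**
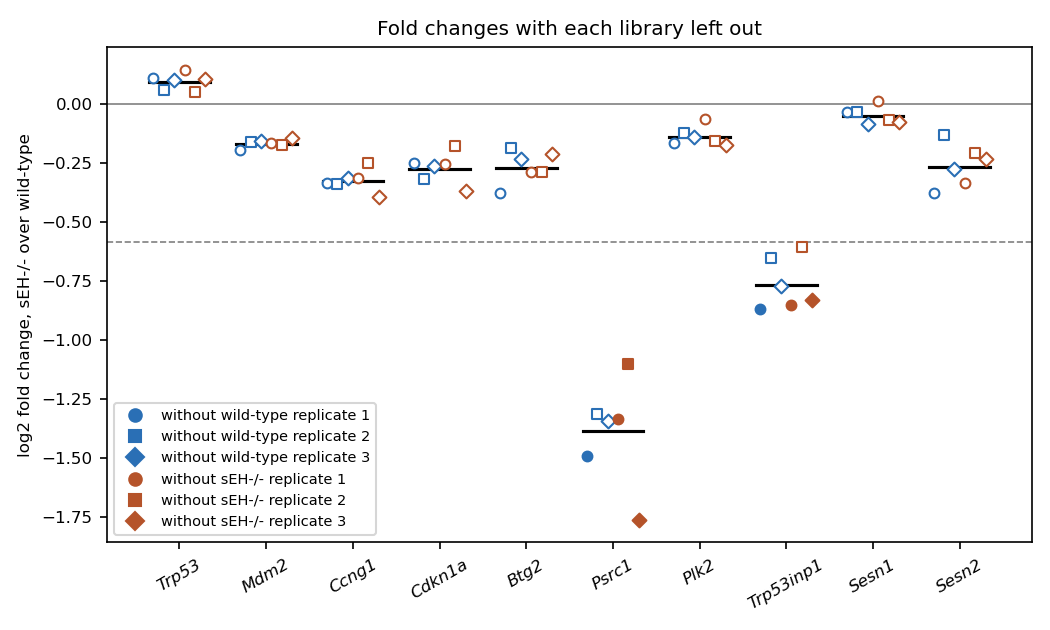
Log2 fold changes of the 10 members, sEH-/- over wild-type, with each of the 6 libraries left out in turn (blue for wild-type, brown for sEH-/-, symbols for the replicate). Black bars give the value with all libraries, filled symbols mark called values and the dashed line marks 1.5-fold. *Trp53inp1* and *Psrc1* stay below the line, but neither is called without wild-type replicate 2 or 3. Over all tested genes, 25 and 6 are called in these fits, respectively.

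Genes around the members were compared as lists, without a test of any list. The lists, like the members, were chosen with earlier results of these data known. Over all tested genes, 2.61% were called in either direction and 1.1% were called lower. Of 12 other p53 targets in arrest and feedback, 10 were tested and 1 was called. This was *Gtse1*, a protein of the G2 phase that holds p53 in check, with 15.5 ± 5.41 CPM in sEH-/- against 43.1 ± 12.6 CPM in wild-type macrophages (SD, n = 3 mice each). It fell by 1.46 on the log2 scale (SE 0.26, edgeR adjusted p = 0.0217). In this list 5 log2 fold changes were below 0 and 5 above, and the median was 0.026. Of the 21 tested regulators of p53, among them kinases, acetylases and partners of Mdm2, 0 were called by edgeR, and their median was 0.036. At an unadjusted p below 0.05 in edgeR they numbered 5, and DESeq2 and limma-voom also called 0. The share of all tested genes below that unadjusted p was not counted, so the 5 do not set this list apart. The most abundant, the acetyltransferase *Ep300*, had 288 ± 26.7 CPM in sEH-/- cells and 281 ± 25.6 CPM in controls (SD, n = 3 mice each) and a log2 fold change of 0.040.

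Targets of p53 in cell death and in DNA repair were counted in the same way. Of 18 tested targets in cell death, 7 were called, all lower. In this list 16 log2 fold changes were below 0 and 2 above, and the median was −0.64. The 3 called genes with the most counts were *Zmat3*, an RNA-binding protein (−0.94, edgeR adjusted p = 0.0172), *Phlda3*, an inhibitor of Akt (−0.66, edgeR adjusted p = 0.0171), and *Aen*, a nuclease of apoptosis (−0.62, edgeR adjusted p = 0.0220). Of 18 tested targets in DNA repair and metabolism, 4 were called, all lower. Here 16 log2 fold changes were below 0 and 2 above, and the median was −0.14. The called genes included *Polk*, a DNA polymerase that copies past lesions (−0.88, edgeR adjusted p = 0.0178), the thiamine transporter *Slc19a2* (−1.05, edgeR adjusted p = 0.0178) and the repair nuclease *Ercc5* (−0.77, edgeR adjusted p = 0.0217). Over the 46 tested genes of these 3 target lists, 12 were called lower, beside 1.1% of all tested genes. Their log2 fold changes were below 0 in 37 genes, beside 50.2% of all tested genes, with a median of −0.27. With sEH-/- replicate 2 left out, 3 of the 46 were called, beside 96 of all tested genes. With sEH-/- replicate 3 left out, 12 were called, 11 lower and 1 higher, beside 570 of all tested genes. Without wild-type replicate 2 or 3, edgeR called 0 of these targets, beside 25 and 6 of all tested genes, respectively. In these fits 17 and 23 of the targets, respectively, had an unadjusted p below 0.05. The share of all tested genes below that unadjusted p was not counted.

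**Figure D5:**
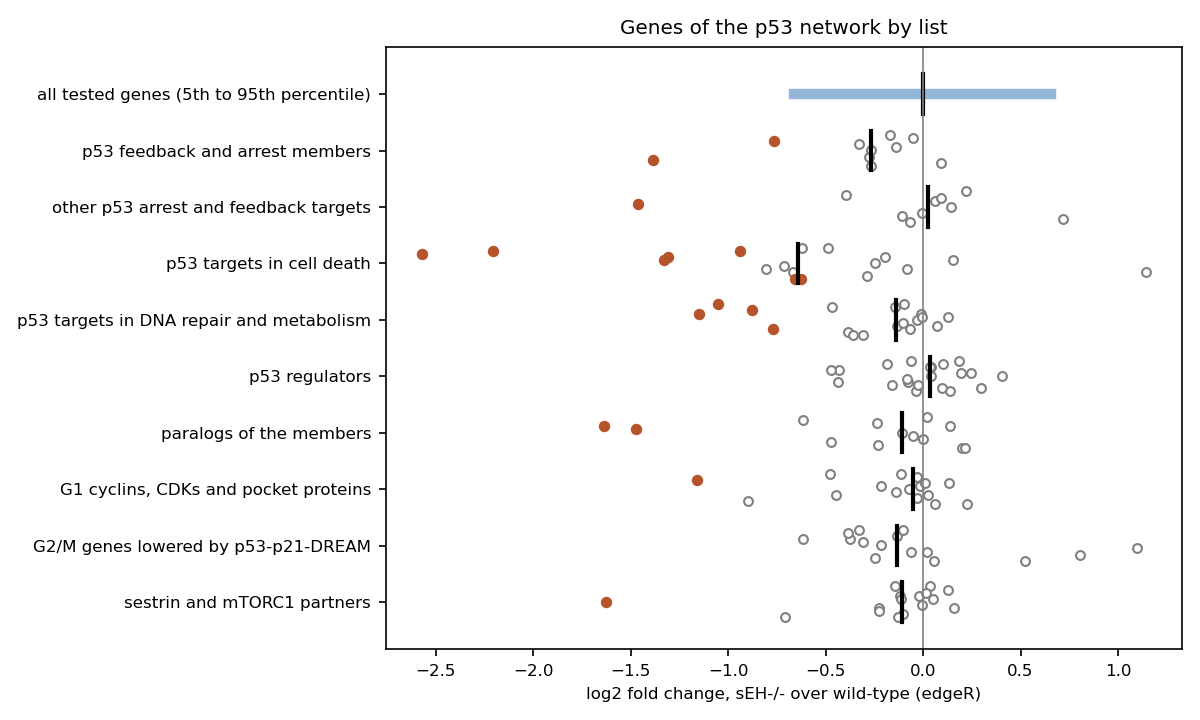
Log2 fold changes, sEH-/- over wild-type, of the tested genes of each list (one point per gene, spread vertically for legibility), with called genes filled, the list median as a black bar and the 5th to 95th percentile of all tested genes as a blue bar. Every called gene shown lies below 0, and the medians run from −0.64 for cell death targets to 0.036 for regulators of p53.

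Close relatives of the members were measured beside them. *Cdkn1b* (p27) had a log2 fold change of 0.018 and *Cdkn1c* (p57), both inhibitors of cyclin-dependent kinases, had one of −1.47 (SE 0.26, edgeR adjusted p = 0.0220), beside −0.28 for *Cdkn1a*. *Cdkn1c* fell from 39.8 ± 12.1 CPM in wild-type to 14.3 ± 4.54 CPM in sEH-/- macrophages (SD, n = 3 mice each). *Mdm4*, the relative of *Mdm2* that binds p53, had a log2 fold change of −0.47 and was short of both thresholds (SE 0.12, edgeR adjusted p = 0.0523), beside −0.17 for *Mdm2*. *Ccng2* lay at −0.00062, *Sesn3* at −0.24, *Trp53inp2* at 0.14, *Btg1* at 0.20 and *Plk3* at −0.11, and none of these was called. *Btg3* was called (−1.64, SE 0.39, edgeR adjusted p = 0.0483) at 1.59 ± 0.34 CPM in sEH-/- against 4.91 ± 1.97 CPM in wild-type cells (SD, n = 3 mice each), but not by DESeq2 or limma-voom. Of the 13 tested relatives, 2 were called, both lower, beside 1.1% of all tested genes called lower. Differences between relatives were not tested.

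Genes of the cell cycle and of mTORC1 control, around p21 and the sestrins, were mostly not called. Over all tested genes, 2.61% were called in either direction. Of 16 tested cyclins, kinases, inhibitors and pocket proteins of the G1 phase, 1 was called, the kinase inhibitor *Cdkn2c* (p18), at 7.93 ± 1.92 CPM in sEH-/- against 17.5 ± 2.02 CPM in wild-type macrophages (SD, n = 3 mice each). It fell by 1.16 on the log2 scale (SE 0.21, edgeR adjusted p = 0.0244). In this G1 list, 6 of the 16 genes had an unadjusted p below 0.05 in edgeR. Of 15 tested G2 and mitosis genes that p53 and p21 are known to repress, 0 were called by edgeR, with a median of −0.14. Of these, 3 had an unadjusted p below 0.05 in edgeR, and DESeq2 and limma-voom called 0 as well. The share of all tested genes below that unadjusted p was not counted, so the 6 and the 3 do not set these lists apart. *Top2a*, the most abundant, had 34.9 ± 5.11 CPM in sEH-/- cells and 36.5 ± 4.77 CPM in controls (SD, n = 3 mice each). Among 16 tested partners of the sestrins and of mTORC1, 1 was called, *Prkaa2*, a catalytic subunit of the energy sensor AMPK (−1.62, SE 0.39, edgeR adjusted p = 0.0474), at 5 to 59 counts per library. It was not called by limma-voom.

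*Trp53cor1*, a long noncoding RNA known as lincRNA-p21, lies beside *Cdkn1a* on the other strand (chr17:29057430-29079179, minus strand) and was chosen after its values were seen. It had 102, 182 and 128 counts in wild-type against 75, 55 and 75 in sEH-/- libraries. The genotypes did not overlap, and it fell by 0.87 on the log2 scale (SE 0.19, edgeR adjusted p = 0.0386), beside −0.28 for its neighbour. Its call was lost in 4 of the 6 fits that left out a library, including the one that omitted sEH-/- replicate 1. *Btg3* was likewise not called with sEH-/- replicate 1 or 3 omitted, nor *Prkaa2* with sEH-/- replicate 3 omitted. Without wild-type replicate 2 or 3, none of *Gtse1*, *Zmat3*, *Phlda3*, *Aen*, *Polk*, *Slc19a2*, *Ercc5*, *Cdkn1c*, *Btg3*, *Cdkn2c*, *Prkaa2* and *Trp53cor1* was called. Without sEH-/- replicate 2, *Zmat3* and *Slc19a2* were the 2 of these 12 genes that were called. Over all tested genes, 25 were called without wild-type replicate 2, 6 without wild-type replicate 3 and 96 without sEH-/- replicate 2. With all libraries 360 were called.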

How the data were processed

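Bulk RNA-seq of 6 libraries, 3 sEH-/- and 3 wild-type, was analysed, with groups and replicate numbers taken from the labels. The authors deposited raw counts per gene. The labels name Trimmomatic 0.39, STAR 2.7.7a to mm10, Picard 2.21.7, featureCounts 1.6.5 and DESeq2 1.30.0, and the methods give other versions of STAR, Picard, featureCounts and DESeq2. Duplicate, multi-mapping, ribosomal and mitochondrial reads had been removed, and exons were counted by strand. Library kit and RNA input differ between labels and methods. Duplicate removal without molecular identifiers limits counts of short, abundant genes.

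The fit used edgeR 4.0.16 in R 4.3.3 (TMM, glmQLFit and glmQLFTest, no covariates) over 13785 genes, which held 99.8% of counts, and DESeq2 1.42.0 and limma 3.58.1 (voom) were alternatives. Standard errors were obtained from the log2 fold change and the F statistic. The common biological coefficient of variation was 0.0866. Libraries of one genotype differed by more than sampling noise (chi-square per degree of freedom 2.27 to 4.91). Gene positions came from the deposited table and exonic lengths from GENCODE M21, which held 19286 of the 19309 identifiers. Promoter windows came from RefSeq. The members and lists were chosen with earlier results of these data known. Besides all members and *Ephx2*, the text names of each list the called genes with the most counts, at most 3, or else its most abundant gene, relatives of members, and the 3 genes nearest in pattern to *Cdkn1a* and *Trp53*. Other settings were RLE, no TMM factors, other filters, thinning, a replicate block, each library left out, no fold change threshold and a ceiling on counts. The scripts were tested on simulated counts, and figures were drawn with matplotlib 3.10.9 in Python 3.11.15.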

Additional observations from a re-analysis of the deposited data

How the results depend on the processing

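*Psrc1* and *Trp53inp1* were the 2 members called in each of the 10 alternatives that kept all 6 libraries, namely DESeq2, limma-voom, RLE, no TMM factors, both filters, thinning, the replicate block, no fold change threshold and the ceiling on counts. With one library left out in turn, the number of called members ranged from 0 to 2. It was 1 without sEH-/- replicate 2, beside 96 of all tested genes. It was 0 without wild-type replicate 2 or 3, beside 25 and 6 of all tested genes, respectively. In each of these last fits 4 members had an unadjusted p below 0.05 in edgeR, and the share of all tested genes below it was not counted. Of 150 refitted values of the members, 144 kept their direction and were called or not called as before, 5 lost a call and 1 changed sign, *Sesn1* without sEH-/- replicate 1 (0.014, with −0.087 as the other end of its range over the libraries left out). Of all tested genes, 360 were called, with 6 to 625 when a library was left out and 553 without the fold change threshold. The 12 called other p53 targets ranged from 0 to 14 with a library left out, an alternative chosen after seeing the data. The *Ephx2* call was kept in all 14 alternatives that tested it. The adjusted p of *Ccng1* was below 0.05 in 5 of 15 alternatives and that of *Cdkn1a* in 1, without either passing 1.5-fold. The causes of these shifts were not tested.

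The labels do not state whether mice of the same replicate number were paired. Deviations of same-numbered libraries from their genotype means correlated at −0.219, −0.457 and −0.063. These values cannot settle pairing, because the deviations within a genotype cancel out. With the replicate block, 234 genes were called, among them 2 members and 10 other p53 targets, and *Btg3*, *Prkaa2* and *Trp53cor1* were not. After thinning to the smallest library, *Aen* and *Prkaa2* were not called.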
